A study of Homo sapiens with 17 samples.

Results

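A set of genes that had low signals in L363 cells given MS275 were described: 6 of the 19775 genes measured. They are NRROS, CBFA2T3, MYEOV, BDH1, ANKLE1 and PLAGL1. They had been picked by name from earlier results of the same arrays for their falls with MS275, so their lower level with MS275 is how they were chosen and is given here without a test. The question left for testing was how their levels differed with rapamycin.

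L363 is a human multiple myeloma cell line. MS275 (entinostat) inhibits class I histone deacetylases, the enzymes that remove acetyl groups from histones, and rapamycin inhibits the kinase mTOR. Total RNA was measured on 17 arrays after 48 hours. The untreated control, 0.5 uM MS275, 1 nM rapamycin, 10 nM rapamycin and 1 nM rapamycin plus MS275 had 3 arrays each, and 10 nM rapamycin plus MS275 had 2. All 6 groups came from this 1 line, and the labels do not say whether the replicates were separate cultures, so p-values measure only the spread between these arrays, which may be technical.

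The 6 genes have different known roles. CBFA2T3, also called ETO2 or MTG16, is a co-repressor that brings the NCOR complexes and histone deacetylases to E-protein and TAL1 complexes on DNA. PLAGL1, also called ZAC1, is an imprinted zinc finger transcription factor. BDH1 is the mitochondrial enzyme that interconverts 3-hydroxybutyrate and acetoacetate, a step of ketone body metabolism. ANKLE1 is an endonuclease with ankyrin repeats and a LEM domain. NRROS is a membrane protein that anchors latent TGF-beta1 and restrains NADPH oxidase, best known in myeloid cells. MYEOV lies near CCND1 in the 11q13 region and is overexpressed in some myelomas.

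The promoter stretches of these genes are shown because CBFA2T3 acts through E-proteins, which bind the E-box CANNTG. RefSeq windows (GRCh38.p14) were found for 5 of the 6 genes, with 10 start sites in all, and the 250 bases before the start with the most CpG are printed for each. Capitals mark CANNTG.
NRROS, chr3:196639444-196639693, plus strand: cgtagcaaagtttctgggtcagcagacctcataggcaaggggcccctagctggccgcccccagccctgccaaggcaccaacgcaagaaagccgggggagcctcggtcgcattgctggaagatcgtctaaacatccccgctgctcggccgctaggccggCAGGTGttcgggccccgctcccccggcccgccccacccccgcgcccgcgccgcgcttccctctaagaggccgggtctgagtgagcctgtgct
CBFA2T3, chr16:88941351-88941600, minus strand: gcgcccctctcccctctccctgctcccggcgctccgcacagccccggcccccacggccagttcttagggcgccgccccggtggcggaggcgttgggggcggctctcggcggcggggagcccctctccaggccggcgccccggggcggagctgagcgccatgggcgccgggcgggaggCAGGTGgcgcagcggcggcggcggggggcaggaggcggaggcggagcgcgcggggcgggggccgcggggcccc
BDH1, chr3:197555969-197556218, minus strand: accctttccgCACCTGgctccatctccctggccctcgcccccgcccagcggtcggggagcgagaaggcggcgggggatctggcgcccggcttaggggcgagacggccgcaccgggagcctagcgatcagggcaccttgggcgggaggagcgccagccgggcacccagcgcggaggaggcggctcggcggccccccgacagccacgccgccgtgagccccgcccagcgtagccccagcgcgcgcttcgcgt
ANKLE1, chr19:17281651-17281900, plus strand: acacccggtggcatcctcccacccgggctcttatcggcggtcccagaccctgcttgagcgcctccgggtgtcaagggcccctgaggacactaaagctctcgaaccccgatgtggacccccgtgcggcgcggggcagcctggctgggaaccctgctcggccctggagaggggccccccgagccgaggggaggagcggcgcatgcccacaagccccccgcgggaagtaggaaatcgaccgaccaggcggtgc
PLAGL1, chr6:144008260-144008509, minus strand: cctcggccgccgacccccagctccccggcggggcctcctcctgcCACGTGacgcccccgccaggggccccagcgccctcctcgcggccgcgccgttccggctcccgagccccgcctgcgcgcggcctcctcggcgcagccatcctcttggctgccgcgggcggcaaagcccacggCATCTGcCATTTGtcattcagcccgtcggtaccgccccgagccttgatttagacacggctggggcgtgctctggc

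The stretch of CBFA2T3 was the richest of the 5 in CpG, with 36 CpG and 84.4% GC. BDH1 had 34 CpG and 77.6% GC, PLAGL1 had 32 and 75.6%, ANKLE1 had 22 and 71.2%, and NRROS had 22 and 69.2%. The median over 35116 such windows of 27305 genes was 11 CpG and 58% GC, but the printed starts had been picked for their CpG. The other start of BDH1 had 1 CpG and 45.6% GC. CANNTG, which reads the same on both strands, stood in 8 of the 10 windows and in 61.8% of all windows. Of all windows, 10.4% held it 3 times or more. The other starts of PLAGL1 held it 0 or 1 times each. The PLAGL1 stretch shown, picked from several starts for its CpG, held it 3 times. The first of these was CACGTG, itself a form of CANNTG, which was in 6.34% of all windows and at no other PLAGL1 start. GGGCGG, counted on both strands, was in 5 of the 10 windows, against 42.6% of all. Several of the 10 windows belong to PLAGL1, and BDH1 has another start, so the counts for CANNTG and GGGCGG weigh the genes unequally. A match describes the letters only.

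The signals are log2 values from RMA, a method that summarises the probes of a probe set, and each gene was read from the probe set with the highest mean over the 17 arrays. The probe sets are 208056_s_at for CBFA2T3, 209318_x_at for PLAGL1, 211715_s_at for BDH1, 1553138_a_at for ANKLE1, 235359_at for NRROS and 227342_s_at for MYEOV. Since probes differ in brightness, levels of the 6 genes are compared only within a gene. In bulk RNA, fewer cells expressing a gene and less RNA per cell cannot be told apart. Replicate 1 of the control and of 1 nM rapamycin plus MS275 stood apart from the rest: the SD of their values over probe sets was 2.14 and 2.15, against 2.27 to 2.37 on the other arrays. The 10 plasma cell markers examined had a median signal of 11.7, and the median was 4.65 to 5.38 in the lists of myeloid, T, red and epithelial or fibroblast markers; this is a coarse check over different probes, and no detection calls were used.

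CBFA2T3 had signals of 6.72, 7.14 and 7.50 on the control arrays and 5.62, 5.42 and 5.0 with MS275. It stood at 7.61, 7.79 and 7.77 with 1 nM rapamycin and at 7.39, 7.67 and 7.68 with 10 nM. With both drugs it was 5.75, 5.77 and 5.48 at 1 nM and 5.98 and 5.53 at 10 nM. Every array with MS275 was thus below every array without it, and 5 of the 6 arrays with rapamycin alone were above all 3 controls. For rapamycin the share of all genes doing so was not counted. The group means ran from 5.35 ± 0.31 (SD, n = 3) with MS275 to 7.73 ± 0.10 (SD, n = 3) with 1 nM rapamycin.

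PLAGL1, the other transcription regulator, was the most variable of the 6 genes in untreated cells, at 4.54, 6.82 and 6.30. The low value came from replicate 1, an array that stood apart. With MS275 alone its signals were 4.41, 4.35 and 4.39, so low that a further fall may not be measurable. Whether this limits the size of its differences with MS275, and with rapamycin added to MS275, was not tested. PLAGL1 was 6.76, 7.76 and 7.25 with 1 nM rapamycin and 6.69, 7.75 and 6.52 with 10 nM. With both drugs it was 4.29, 5.66 and 4.71 at 1 nM and 5.55 and 4.75 at 10 nM. The groups with and without MS275 overlapped through that control array, whereas among the rapamycin arrays the highest with MS275 (5.66) was below the lowest without (6.52). Its means were 5.89 ± 1.19 (SD, n = 3) in controls and 7.26 ± 0.50 (SD, n = 3) with 1 nM rapamycin.

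BDH1, the ketone body enzyme, differed by MS275 state and little otherwise. Its signals were 7.82, 8.34 and 8.50 in controls, 8.12, 8.31 and 8.36 with 1 nM rapamycin, and 8.21, 8.30 and 8.56 with 10 nM. With MS275 they were 6.65, 6.47 and 6.45. With MS275 and rapamycin they were 6.66, 6.50 and 6.38 at 1 nM, and 6.39 and 6.45 at 10 nM. The 8 arrays with MS275 lay between 6.38 and 6.66 and the 9 without it between 7.82 and 8.56, whatever the rapamycin dose. The 3 group means without MS275 ran from 8.22 ± 0.36 to 8.36 ± 0.18 (SD, n = 3 each) and did not differ beyond their spread.

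The nuclease gene ANKLE1 had signals of 7.65, 8.67 and 8.56 in controls and 6.63, 6.80 and 6.43 with MS275. They were 7.56, 7.91 and 7.56 with 1 nM rapamycin and 7.14, 7.91 and 7.45 with 10 nM. With both drugs they were 6.11, 6.61 and 5.85 at 1 nM and 5.90 and 6.08 at 10 nM. Its means ordered as control (8.29 ± 0.56), 1 nM rapamycin (7.68 ± 0.20), 10 nM rapamycin (7.50 ± 0.39), MS275 (6.62 ± 0.19), 1 nM plus MS275 (6.19 ± 0.39), each SD with n = 3, and 10 nM plus MS275 (5.99 ± 0.12, SD, n = 2). Neighbours in this order overlapped on single arrays, except that every array with 10 nM rapamycin was above every array with MS275 alone.

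NRROS, the TGF-beta1 anchor, was highest in controls, at 9.50, 9.53 and 9.02. With 1 nM rapamycin it was 8.75, 8.76 and 8.45 and with 10 nM it was 8.63, 8.72 and 8.79, so all 6 of these arrays were below all 3 controls. The share of all genes doing so was not counted, and these controls may have entered the choice of NRROS. Averaged over doses and MS275 states, its rapamycin difference had a limma adjusted p of 0.535. With MS275 NRROS was at 7.86, 7.32 and 6.67. In the combinations it was 7.45, 7.50 and 7.15 at 1 nM and 7.58 and 7.01 at 10 nM, within the range seen with MS275 alone. The 6 measured myeloid markers had a mean signal of 4.56 to 4.91 in every group. Only CSF1R had an adjusted p under 0.05 when MS275 was added to rapamycin. It rose by 0.64 ± 0.15 SE on the log2 scale (limma adjusted p = 0.0262), where 2.41% of all genes rose. Its part in the NRROS values was not tested. In the plasma cell list 1 of 10, SLAMF7, was called in the same comparison, at -2.01 ± 0.44 (limma adjusted p = 0.0174). Of all genes, 1.57% were called lower there. With rapamycin averaged over doses and MS275 states 1 of the 10, CD38, was called, at -1.5 ± 0.13 (limma adjusted p = 4.83e-05). That comparison called 2.35% of all genes. The mean signals of the 6 myeloid markers ran from 2.98 for LYZ to 6.32 for AIF1, with SPI1 at 3.99, CD14 at 4.42, CSF1R at 5.16 and ITGAM at 5.68.

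MYEOV had widely spread replicates. Its signals were 9.84, 8.52 and 10.17 in controls and 8.52, 7.13 and 7.65 with MS275. With rapamycin alone they were 9.25, 8.78 and 9.21 at 1 nM and 9.11, 8.92 and 9.47 at 10 nM. The combinations gave 7.97, 7.53 and 7.37 at 1 nM and 7.13 and 7.48 at 10 nM. Control replicate 2 and MS275 replicate 1 came within rounding of each other, and the control mean of 9.51 ± 0.87 and the MS275 mean of 7.77 ± 0.70 (SD, n = 3 each) had the widest spreads of this gene.

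**Figure D1:**
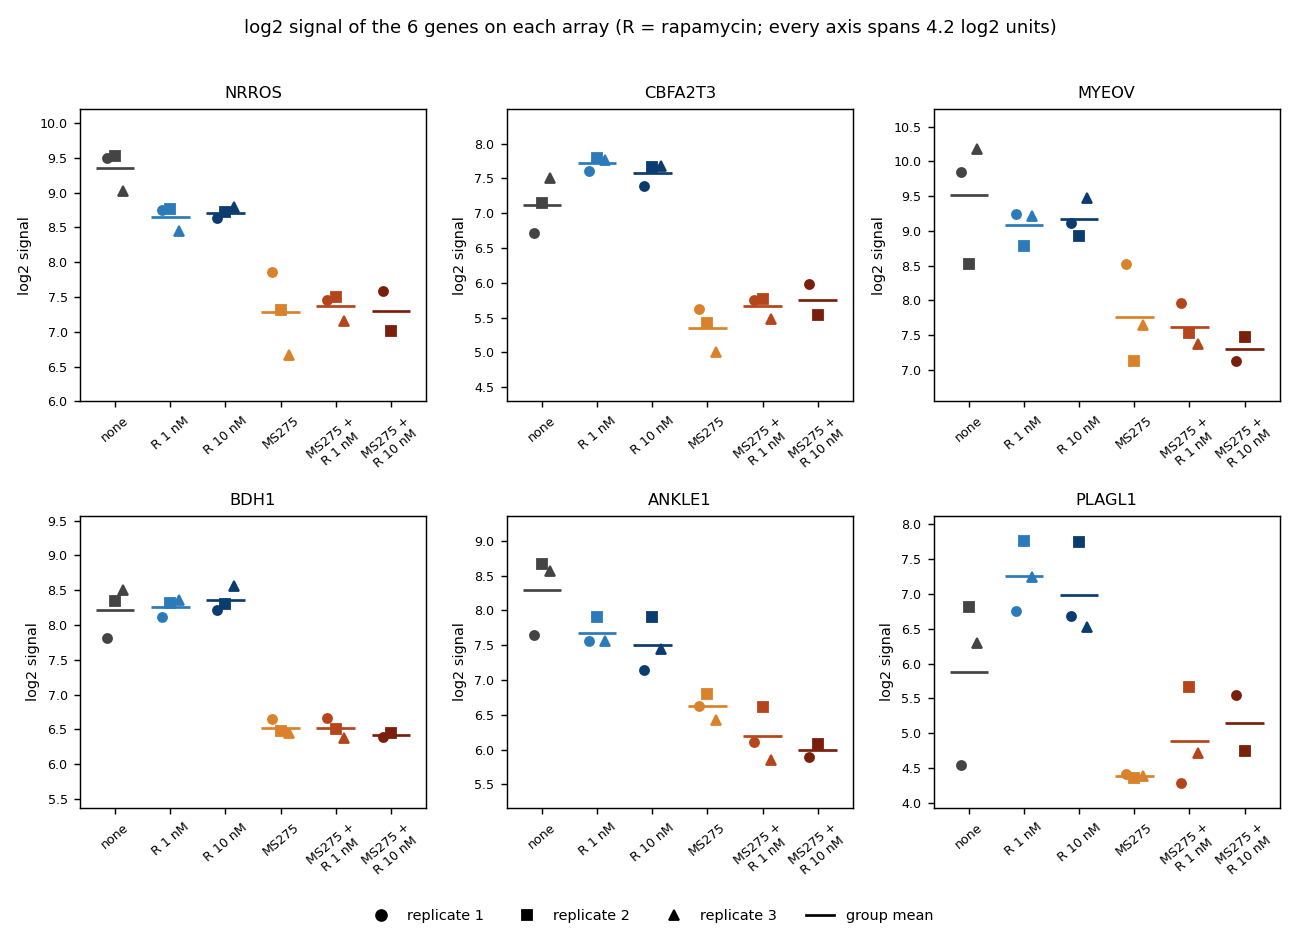
Log2 signal of the 6 genes on each of the 17 arrays, 1 panel a gene, by group: no drug, rapamycin (R) at 1 or 10 nM, and MS275 alone or with either dose. Points are arrays with the marker giving the replicate number, bars are group means; the BDH1 arrays fall between 6.38 and 6.66 with MS275 and between 7.82 and 8.56 without it.

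The contrast of MS275 with untreated cells describes the choice of members. The log2 differences were -2.07 ± 0.26 (SE) for NRROS, -1.77 ± 0.22 for CBFA2T3, -1.74 ± 0.39 for MYEOV, -1.70 ± 0.18 for BDH1, -1.68 ± 0.28 for ANKLE1 and -1.51 ± 0.52 for PLAGL1. The first 4 ranked 1 to 4 and ANKLE1 ranked 6 among the falls past the threshold of an adjusted p under 0.05, which 0.455% of genes passed in that direction. SLC7A5 (-1.70 ± 0.23), SPAG5 (-1.66 ± 0.27) and HACL1 (-1.61 ± 0.26) stood beside them and are no members. PLAGL1 did not pass there and ranked 17 by size. It was instead the largest fall past the threshold when MS275 was added to 1 nM rapamycin, so the arrays with rapamycin may have entered the choice, and all MS275 comparisons of the 6 genes are given as descriptions.

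When MS275 was added to 1 nM rapamycin, the differences were -2.37 for PLAGL1 (95% confidence interval -3.49 to -1.26), -2.06 for CBFA2T3 (-2.53 to -1.60) and -1.75 for BDH1 (-2.14 to -1.37). They were -1.48 for ANKLE1 (-2.08 to -0.89), -1.45 for MYEOV (-2.30 to -0.61) and -1.28 for NRROS (-1.84 to -0.72). Of the 6 genes 5 were past the threshold, all but MYEOV, where 0.293% of genes were called lower. Added to 10 nM rapamycin, MS275 gave -1.94 for BDH1 (-2.37 to -1.50), -1.86 for MYEOV (-2.80 to -0.91) and -1.84 for PLAGL1 (-3.09 to -0.59). CBFA2T3 differed by -1.83 (-2.35 to -1.31), ANKLE1 by -1.51 (-2.18 to -0.84) and NRROS by -1.42 (-2.04 to -0.79). BDH1 and CBFA2T3, 2 of the 6, were past the threshold there, where 0.137% of genes were called lower. Nothing is read from these counts, which the choice of genes can set.

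Averaged over both doses, an average added after the data had been seen, the differences ran from 2.55-fold lower for NRROS to 4.31-fold lower for PLAGL1. CBFA2T3 was 3.85-fold lower, BDH1 3.59-fold, MYEOV 3.15-fold and ANKLE1 2.82-fold. All 6 were past the threshold, as were 1.57% of genes in that direction, and nothing is read from this either. In the arrays with rapamycin, the 5 with MS275 were below the 6 without it for 6 of 6 genes, as for 2.97% of all genes. Over all 17 arrays this held for 5 of the 6, all but PLAGL1, as for 0.587% of all genes. Both counts restate what the genes were picked for. The median of the 6 was -1.75, against 0.06 over all genes. The MS275 difference at 10 nM minus that at 1 nM, also added later, was -0.18 for BDH1 (95% confidence interval -0.76 to 0.40) and 0.23 for CBFA2T3 (-0.47 to 0.93). The interval was -0.97 to 0.71 for NRROS, -0.92 to 0.88 for ANKLE1, -1.67 to 0.86 for MYEOV and -1.14 to 2.21 for PLAGL1. For PLAGL1 and MYEOV these intervals leave room for differences of more than 1 log2 unit between doses.

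**Figure D2:**
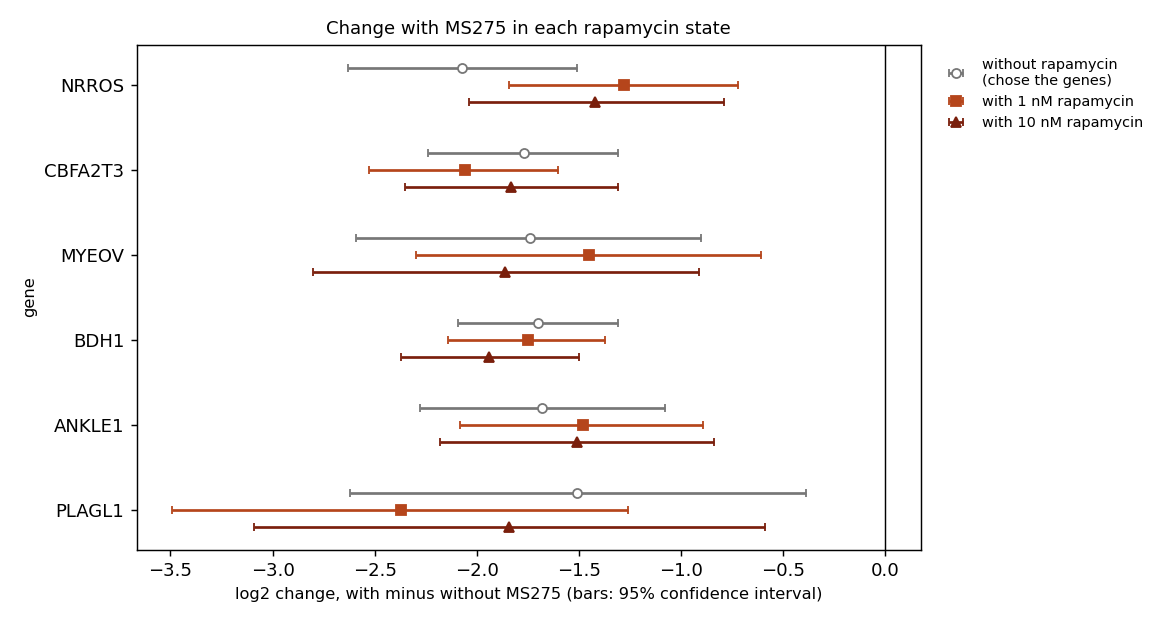
Log2 difference with MS275 for each of the 6 genes, without rapamycin (open grey) and with 1 or 10 nM rapamycin; points are limma estimates and bars 95% confidence intervals. The NRROS point without rapamycin lies at -2.07 and its points with rapamycin at -1.28 and -1.42, while for PLAGL1 the point at 1 nM (-2.37) is lowest.

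The effect of rapamycin was averaged over both doses and over cells without and with MS275. Under equal spread the correlation of this contrast with the MS275 contrasts is 0 at no rapamycin and at 1 nM, and 0.09 at 10 nM. The spreads were not equal: the SD was 1.19 in controls and 0.03 with MS275 for PLAGL1, and 0.56 and 0.19 for ANKLE1. The correlation then need not be 0, so these values may not be free of the choice of genes. Which MS275 comparison made that choice is also not known. With averaged rapamycin 0 of the 6 genes passed (limma, all 19775 genes), against 2.35% of all genes. At an unadjusted p under 0.05, 3 of the 6 genes stood out, as did 11% of all genes. The 3 did not share a direction: the estimates for CBFA2T3 and PLAGL1 were above 0 and that for ANKLE1 was below 0.

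CBFA2T3 was 0.45 ± 0.14 (SE) higher on the log2 scale with rapamycin, 95% confidence interval 0.16 to 0.74, limma adjusted p = 0.133. Without MS275 the descriptive differences from control were 0.61 ± 0.22 at 1 nM and 0.46 ± 0.22 at 10 nM, and on top of MS275 they were 0.32 ± 0.22 and 0.41 ± 0.24. These 4 estimates were above 0, each by less than 1 log2 unit, and the intervals of all but the first reached 0 or below. They share the control or MS275 arrays as baselines, so they are not 4 separate observations. Without control replicate 1, the lowest control (6.72), the averaged value was 0.35 (limma adjusted p = 0.254). Over the settings run it lay between 0.25 and 0.54. PLAGL1 differed by 0.93 ± 0.33, with an interval of 0.24 to 1.63 and a limma adjusted p of 0.224. Its differences from control were 1.37 ± 0.52 and 1.10 ± 0.52 at 1 and 10 nM, and those added to MS275 were 0.50 ± 0.52 and 0.76 ± 0.58. These values rest on a control group whose replicate 1 (4.54) was more than 1 log2 unit below the other controls. Without that array the averaged value was 0.60 (limma adjusted p = 0.408).

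ANKLE1 differed in the opposite direction, by -0.61 ± 0.18, with an interval of -0.99 to -0.24 and a limma adjusted p of 0.102. It passed without control replicate 1 (-0.78, limma adjusted p = 0.0139) and with the replicate number as a block (-0.63, limma adjusted p = 0.0165), so this call depended on the setting. Against control it was -0.62 ± 0.28 at 1 nM and -0.79 ± 0.28 at 10 nM, and added to MS275 it was -0.43 ± 0.28 and -0.62 ± 0.31. For NRROS the averaged value was -0.31 ± 0.16 (interval -0.66 to 0.04, limma adjusted p = 0.535), from -0.47 without MS275 replicate 3 to -0.17 without MS275 replicate 1. Its estimates were -0.70 ± 0.26 and -0.64 ± 0.26 in cells without MS275 but 0.08 ± 0.26 and 0.01 ± 0.29 in cells with it. The difference of these differences was 0.78 ± 0.37 at 1 nM and 0.65 ± 0.39 at 10 nM, a description because it uses the control and MS275 arrays that chose this gene.

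BDH1 did not pass, at 0.02 ± 0.11 with an interval of -0.23 to 0.26 and a limma adjusted p of 0.983. For MYEOV the averaged value was -0.34 ± 0.25, with an interval of -0.87 to 0.18 and a limma adjusted p of 0.72. Single arrays moved it from -0.59 (without control replicate 2) to -0.16 (without MS275 replicate 1), and control replicate 3 left out gave -0.18. By dose, 1 nM averaged over MS275 states gave 0 of 6 genes past the threshold (0.764% of all genes) and 10 nM gave 0 of 6 (1.65% of all genes), each with 3 genes at an unadjusted p under 0.05 (6.94% and 9.53% of all genes). At 1 nM the averaged estimates were 0.46 for CBFA2T3, 0.94 for PLAGL1 and -0.52 for ANKLE1, and at 10 nM they were 0.43, 0.93 and -0.71. ANKLE1 passed at 10 nM too without control replicate 1 (-0.87, limma adjusted p = 0.0219).

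**Figure D3:**
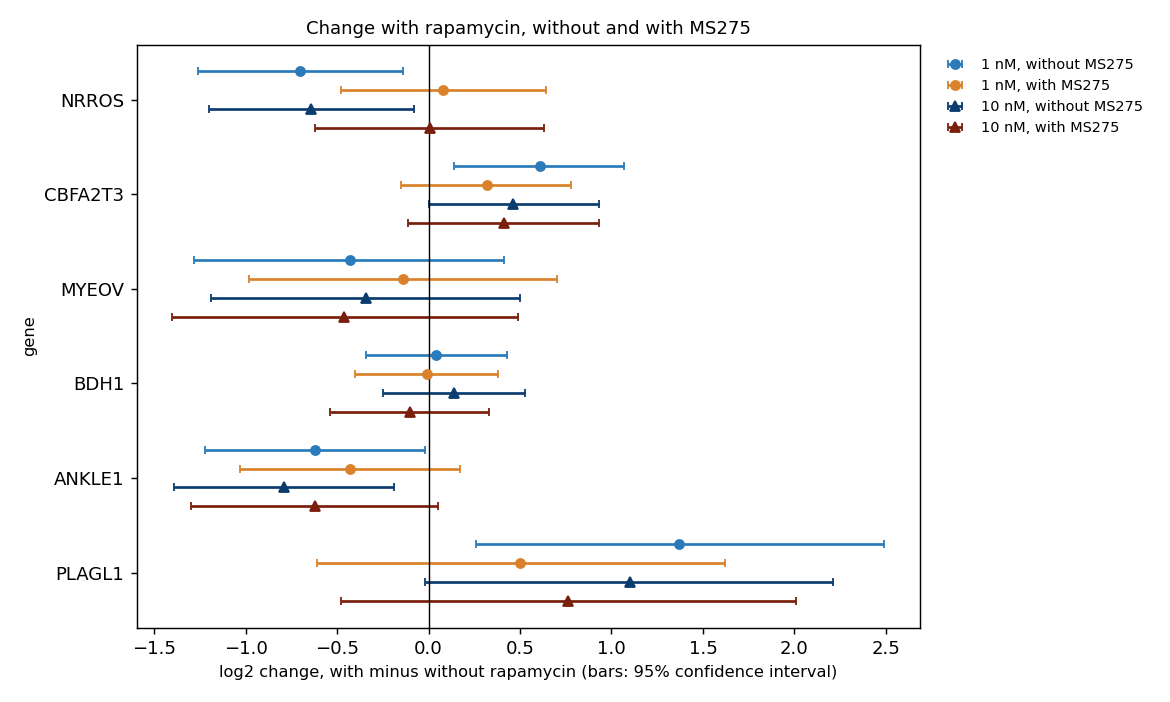
Log2 difference with 1 and 10 nM rapamycin for each of the 6 genes, without and with MS275; points are limma estimates and bars 95% confidence intervals. For CBFA2T3 all 4 points are above 0 (0.32 to 0.61), for ANKLE1 all are below (-0.79 to -0.43), and for NRROS the points without MS275 (-0.70 and -0.64) are below those with it (0.08 and 0.01).

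The direct comparison of 10 with 1 nM shares arrays with the MS275 comparisons, so intervals are given without a test. Without MS275 the difference was 0.09 for BDH1 (-0.29 to 0.48), -0.14 for CBFA2T3 (-0.61 to 0.32) and -0.18 for ANKLE1 (-0.78 to 0.42). The intervals of NRROS (-0.50 to 0.62), MYEOV (-0.76 to 0.93) and PLAGL1 (-1.39 to 0.84) also held 0. With MS275 the 6 estimates lay between -0.32 for MYEOV and 0.26 for PLAGL1. None of the 12 intervals left 0 out, and those of PLAGL1 were wider than 2 log2 units. Of the 19775 genes, 0 were past the threshold in either comparison (limma), 24 and 152 having an unadjusted p under 0.05. Those are far fewer than such a cut gives where no gene differs, so the fit may be too cautious here and miss differences. It leaves out the pairing of same-numbered arrays described below. With the replicate number as a block, 0 genes were past the threshold too.

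PLAGL1 had 3 singly annotated probe sets and BDH1 had 2. The probe set of PLAGL1 used above, 209318_x_at, correlated over the 17 arrays with 207943_x_at (r = 0.91) and 207002_s_at (r = 0.94), and probe sets ending in x_at can also match other transcripts. In a fit over every probe set of the table, the averaged rapamycin estimates of PLAGL1 were 0.93 ± 0.33, 0.67 ± 0.24 and 0.93 ± 0.31, with limma adjusted p of 0.296, 0.293 and 0.243. Its MS275 differences averaged over rapamycin doses were -2.11 ± 0.39, -1.02 ± 0.28 and -1.64 ± 0.37. For MS275 against control they were -1.51 ± 0.52, -0.39 ± 0.38 and -1.19 ± 0.49, so 207943_x_at differed by little more than its SE there. The 3 probe sets thus shared their directions but not their sizes. BDH1 was less uniform: the second probe set, 1570336_at, correlated with the first at r = 0.48, and differed with MS275 by -0.24 ± 0.16, against -1.85 ± 0.14 for the first. This second probe set was low in every group, controls included (5.14 ± 0.11, SD, n = 3), and whether it could show such a fall was not tested.

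**Figure D4:**
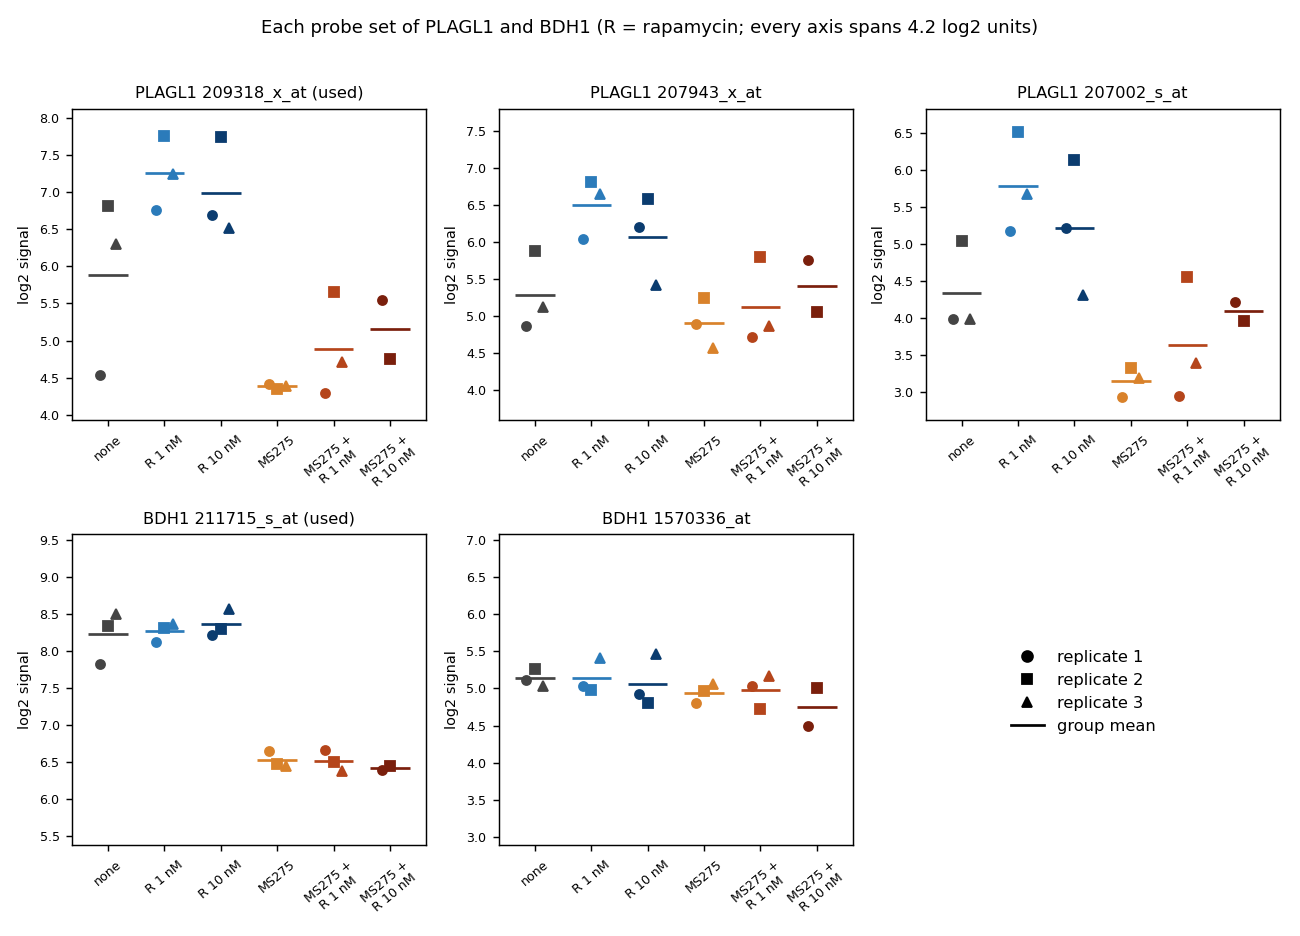
Log2 signal on each array for the 3 probe sets of PLAGL1 and the 2 of BDH1, by group; points are arrays and bars are group means. The BDH1 probe set 211715_s_at is at 8.22 in controls and 6.52 with MS275, while 1570336_at is at 5.14 and 4.94.

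Genes related to the 6 by function, gene family, imprinting or chromosome region were examined in 6 lists, of whose 83 genes 72 were measured. With rapamycin averaged over doses and states, 0 of the 72 passed (limma), against 2.35% of all genes, and 10 had an unadjusted p under 0.05, close to the 11% of all genes that did. Among 19 partners of CBFA2T3 the median was 0.08, against -0.04 over all genes. RUNX1T1, the related ETO co-repressor, was at 0.94 ± 0.39 (limma adjusted p = 0.363), and ZNF652, a zinc finger repressor, was at 0.39 ± 0.15 (limma adjusted p = 0.273). The ketone body list around BDH1 had a median of -0.26, with OXCT1 at -0.42 ± 0.13 (limma adjusted p = 0.128). The list around NRROS included TGFB1, the ligand that NRROS anchors, at -0.56 ± 0.19 (limma adjusted p = 0.223). It also included ITGB8, an integrin subunit that activates latent TGF-beta, at 1.51 ± 0.52 (limma adjusted p = 0.222). SGCE, an imprinted gene in the list around PLAGL1, was at -0.47 ± 0.12 (limma adjusted p = 0.0527). SLX4, a scaffold for nucleases in the list around ANKLE1, was at -0.47 ± 0.16 (limma adjusted p = 0.204), and TPCN2, of the 11q13 list around MYEOV, at -0.39 ± 0.16 (limma adjusted p = 0.365).

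For MS275 against control, added to 1 nM and added to 10 nM, 0 of the 72 genes passed (limma), with 7, 8 and 5 at an unadjusted p under 0.05. In the average over rapamycin doses that was added later, 1 of the 72 rose and 2 fell, where 2.41% and 1.57% of all genes did. Both genes that fell belong to the ketone body list, of which 6 of 9 genes were measured, as BDH1 does by function. BDH2, a cytosolic hydroxybutyrate dehydrogenase, fell by 1.07 ± 0.20 (SE) on the log2 scale (limma adjusted p = 0.00746), and against control it was at -0.72 ± 0.27 (limma adjusted p = 0.291). OXCT1, which activates acetoacetate for use as fuel, fell by 0.72 ± 0.15 (limma adjusted p = 0.0154), and against control it was at -0.86 ± 0.20 (limma adjusted p = 0.0531). The list's median was -0.48, against 0.06 over all genes. CDKN1C, an imprinted cyclin-dependent kinase inhibitor from the list around PLAGL1, rose by 1.0 ± 0.24 (limma adjusted p = 0.0312), and against control it was at 0.25 ± 0.32 (limma adjusted p = 0.881).

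The nearest measured gene on each side of the 6, by gene midpoint, was looked up in the RefSeq table. This gave 12 neighbours, at gaps of 0 to 344 kb. Of these, 0 passed with rapamycin (limma), with 1 at an unadjusted p under 0.05 where 11% of all genes were. When MS275 was added to rapamycin 0 passed (limma), with 4 at an unadjusted p under 0.05 where 14.5% of all genes were. CCND1, the cyclin D1 gene 344 kb from MYEOV, differed by 0.01 ± 0.13 with MS275 (limma adjusted p = 0.984). HYMAI, the imprinted transcript that overlaps PLAGL1, differed by -0.32 ± 0.27 (limma adjusted p = 0.685), and both had low signals in every group (4.32 to 4.49 for CCND1 and 4.63 to 5.17 for HYMAI), where a fall may not be measurable. TRAPPC2L, 12.2 kb from CBFA2T3, was at -0.89 ± 0.28 (limma adjusted p = 0.101), and RUBCN, 95.5 kb from BDH1, was at 0.54 ± 0.19 (limma adjusted p = 0.142).

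Genes with the most similar pattern were ranked by Pearson correlation over the 17 arrays among 9883 genes at or above the median level, the 6 genes themselves left out, as a description in which the arrays with MS275 form a cluster of their own. For CBFA2T3 these were ZBED10P (r = 0.94), TMEM231 (r = 0.94), FBXW4 (r = 0.93), DNASE1L1 (r = 0.93) and ZBP1 (r = 0.93). ZBP1, a sensor of nucleic acids, had means of 7.0 in controls, 5.69 with MS275, 7.88 with 1 nM rapamycin and 8.01 with 10 nM. The first, ZBED10P, was at 7.74, 6.88, 7.82 and 7.91 in the same groups, and TMEM231 at 7.90, 7.0, 7.76 and 7.90. All 3 were low with MS275, and their levels with rapamycin alone differed: above the control mean for ZBP1 and near it for the others. DNASE1L1 (r = 0.97) was also most like BDH1, with HPDL (r = 0.97). IRAK1, a kinase of interleukin-1 and toll-like receptor signalling, and PTPN7, a tyrosine phosphatase, were most like NRROS (r = 0.96 and 0.95). For MYEOV they were TSPEAR-AS2 and TRIM25 (both r = 0.95), for ANKLE1 they were TRMT2B (r = 0.96) and ADA (r = 0.95), and for PLAGL1 they were LRP8-DT (r = 0.96) and TRAF3IP3 (r = 0.92).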

How the data were processed

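Total RNA of L363 cells was measured on 17 arrays. The authors deposited log2 values, 1 for each probe set and array. RMA from the affy package made them, per the submitters' processing notes; the release used is not given in the sources used here. They were used without further normalization. In the platform annotation 41091 probe sets name 1 gene, 1801 several and 11721 none. The brightest probe set on average among those naming a gene alone stood for it, giving 19775 genes. The precision is limited by the number of arrays.

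Group means were fitted with limma 3.58.1 (lmFit and eBayes, R 4.3.3) on all 17 arrays, with Benjamini-Hochberg adjustment over all genes and a threshold of 0.05, and the code was tested on simulated data. The members and lists were chosen with earlier results of these data known. Tests of MS275 added to each rapamycin dose, and of 10 against 1 nM, had been planned on the assumption that MS275 against control chose the members. The rank of PLAGL1 did not bear this out, so those values are given without p-values for the members. Which members were past the threshold with MS275 is given only as a description of their choice. Named genes were the 6 members, up to 3 genes a related list with the smallest adjusted p for averaged rapamycin and any that passed, the nearest measured neighbours, and the genes most alike in pattern (5 for CBFA2T3, 2 for the others). The lists were partners of CBFA2T3, TGF-beta anchoring and NADPH oxidase, ketone body, 11q13, LEM domain and nuclease, and imprinted genes. Their medians for averaged rapamycin were 0.08, 0.04, -0.26, 0.00, -0.25 and 0.02, and for MS275 added to rapamycin they were 0.00, 0.03, -0.48, 0.01, -0.05 and 0.24.

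Same-numbered arrays deviated together in the control, MS275, 1 nM and 1 nM plus MS275 groups (r of 0.29 to 0.82 over the 19775 genes). The 10 nM rapamycin arrays did so with 1 nM rapamycin (0.31 to 0.85). Against the control, MS275 and 1 nM plus MS275 groups they did so only in replicates 2 and 3 (0.18 to 0.61, while replicate 1 gave -0.34 to -0.16). For 10 nM plus MS275 the values with the other groups ran from -0.74 to 0.39. Deviations of its 2 arrays from their mean mirror each other, so whether that group pairs cannot be told. The pairing was seen in the values, the labels being silent on it, and the arrays of narrow spread share number 1. Alternatives were this block, array weights, leaving out the arrays of narrow spread or each array in turn, quantile normalization, median centring, a filter on low signals, the mean of probe sets, limma's trend with robust fitting, and a fit on the groups of the contrast alone.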

Additional observations from a re-analysis of the deposited data

How the results depend on the processing

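With rapamycin averaged over doses and states, 0 of the 6 genes passed, and ANKLE1 passed as 1 of 6 with the replicate block, with array weights (-0.80, limma adjusted p = 0.00411) and without the 2 arrays of narrow spread (-0.77, limma adjusted p = 0.0175). At 10 nM the count was 1 in the same 3 settings, and at 1 nM it was 1 with array weights. Leaving out each array gave 0 to 1 for the average and for 10 nM, the 1 being ANKLE1 without control replicate 1, and 0 to 0 for 1 nM and for both comparisons of doses. The genes called overall moved more: 464 for averaged rapamycin became 1562 with array weights and 817 with the pairing as a block and ran from 259, without MS275 replicate 1, to 527 with each array left out, and at 1 nM 151 became 650 and 316, or 83 in the fit on the groups of the contrast alone. At 10 nM, 327 became 1059 and 599, 508 without the arrays of narrow spread, and 145 in that restricted fit.

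The counts for MS275 concern genes chosen for their falls with it and say nothing about stability. For MS275 added to 1 nM, 5 of 6 genes were past the threshold, 3 with quantile normalization and 2 in the fit on those groups alone, with 2 to 6 when each array was left out. The count was 2 without any 1 nM array or without 1 nM plus MS275 replicate 1 or 3. With the replicate block it was 6, MYEOV included. For MS275 added to 10 nM the count was 2, and 5 with the replicate block, 5 with array weights, 4 without the arrays of narrow spread and 0 in the fit on those groups alone, with 1 to 4 when each array was left out. The 1 came without 10 nM plus MS275 replicate 2, which left BDH1. It was 4 without control replicate 1 or 2, and 3 without MS275 replicate 1 or 3 or 1 nM plus MS275 replicate 2. Averaged over doses all 6 were past it with each array left out, and PLAGL1 was below the filter on low signals. The cause of these changes was not tested. None of the 6 genes changed the sign of its MS275 difference in rapamycin in the settings run. Over all genes, MS275 added to 1 nM gave 243 calls, and 922, 559, 140 and 39 with array weights, block, filter and restricted fit, while 10 nM gave 86, and 325, 338, 45 and 0, or 262 without the arrays of narrow spread. Averaged over doses it gave 787, and 1828, 1413 and 1201 with array weights, block and without those arrays, and 465 without 10 nM plus MS275 replicate 2. Quantile normalization moved the median of all genes for MS275 added to 1 nM from 0.12 to 0.01, and median centring to -0.04.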
